A study of Mus musculus with 6 samples.

Results

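The genes described here are the nuclear subunit genes of respiratory complexes II to V, 45 genes chosen by symbol from the 23282 rows of the deposited count tables. They comprise 4 genes of complex II (succinate dehydrogenase), 9 of complex III (cytochrome bc1), Cycs for cytochrome c, 15 of complex IV (cytochrome oxidase, with Ndufa4) and 16 of complex V (ATP synthase, with its inhibitor gene Atpif1). All 45 passed the filter on low counts, with 124 to 20628 counts in single libraries. The samples were gastrocnemius muscles of wild-type male C57/BL6J mice aged 20 months, and no young or undosed animals enter the comparison. In the inotodiol group, 3 mice received inotodiol, a triterpenoid of the chaga mushroom, by mouth every day at 0.35 mg/kg for 10 weeks. In the vehicle group, 3 mice received a carrier for 10 weeks, which the labels give as 40% polyethylene glycol, 5% Tween 80 and 0.9% saline. No carrier is listed for the inotodiol samples. The labels call the 3 samples of each group biological replicates, and the title of the series names muscle wasting with age and the function of mitochondria as its subject.

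The respiratory chain of the inner mitochondrial membrane passes electrons from succinate, through complex II, and from NADH, through complex I, to ubiquinone, then through complex III and cytochrome c to complex IV, which reduces oxygen. Complexes III and IV pump protons as they do so, and complex V lets the protons flow back and makes ATP. In muscle, where contraction sets the demand for ATP, several small subunits of complex IV come in a form found mainly in heart and skeletal muscle and a form found in most tissues. Mitochondrial DNA encodes the catalytic core of complex IV and some subunits of complexes III and V, and none of those transcripts was in the tables analysed here.

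Factors of the NRF1 and ETS families are known to act on many promoters of these genes, so the upstream sequences were read. They came from the set of RefSeq promoter windows at hand (GRCm38.p6), as the 250 bases before the first listed start of a gene. Of the 45 genes 36 had a window in that set. Those without were Sdhc, Uqcrc2, Uqcrb, Uqcrq, Cyc1, Cox4i1, Cox6a2, Cox6c and Atp5a1, all of which are RefSeq genes. The windows printed next are those of Sdhd, which had the most negative difference between the groups, and of 4 isoform genes of complex IV on which later values turn. Each runs 5′ to 3′ on the strand of its gene, with matches to GCGCANGCG (NRF1) or CCGGAAG (ETS), searched on both strands, in capitals. For Sdhd the 90 bases nearest the start are given, at chr9:50603850-50603939 on the minus strand, where an exon of the divergent gene Timm8b begins. The others are whole windows, Cox6a1 at chr5:115348959-115349208 (minus), Cox7a1 at chr7:30183921-30184170 (plus), Cox8a at chr19:7217617-7217866 (minus) and Cox8b at chr7:140900447-140900696 (minus).
Sdhd: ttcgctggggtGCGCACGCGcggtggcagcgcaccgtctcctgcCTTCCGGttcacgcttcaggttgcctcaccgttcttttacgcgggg
Cox6a1: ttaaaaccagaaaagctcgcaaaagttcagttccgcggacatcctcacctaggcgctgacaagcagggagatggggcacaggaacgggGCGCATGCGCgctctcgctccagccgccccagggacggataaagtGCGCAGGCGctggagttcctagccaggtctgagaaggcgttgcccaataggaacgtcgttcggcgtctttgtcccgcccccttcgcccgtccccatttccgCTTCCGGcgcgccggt
Cox7a1: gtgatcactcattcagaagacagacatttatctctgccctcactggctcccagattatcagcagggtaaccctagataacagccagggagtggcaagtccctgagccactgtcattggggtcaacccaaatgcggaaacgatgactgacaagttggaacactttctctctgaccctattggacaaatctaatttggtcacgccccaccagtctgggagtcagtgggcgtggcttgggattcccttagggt
Cox8a: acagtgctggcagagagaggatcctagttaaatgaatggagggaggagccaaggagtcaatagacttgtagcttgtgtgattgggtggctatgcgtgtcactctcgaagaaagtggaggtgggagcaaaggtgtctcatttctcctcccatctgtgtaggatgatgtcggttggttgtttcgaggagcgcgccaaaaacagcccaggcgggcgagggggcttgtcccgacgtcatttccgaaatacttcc
Cox8b: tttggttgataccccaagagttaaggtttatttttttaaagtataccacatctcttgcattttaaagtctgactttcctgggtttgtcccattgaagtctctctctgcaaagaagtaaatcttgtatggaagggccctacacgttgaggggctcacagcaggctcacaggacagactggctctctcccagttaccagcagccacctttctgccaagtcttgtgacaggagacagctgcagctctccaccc
In the Sdhd window the NRF1 match began 79 bases and the ETS match 46 bases before the start. The Cox6a1 window, of a general isoform, held NRF1 matches that began 162, 161 and 117 bases before the start, the first 2 overlapping on opposite strands, and an ETS match that began 16 bases before it. RefSeq and GENCODE place starts differently, and the last 23 bases of the Cox6a1 window, with this ETS match, and the last 27 of the Cox7a1 window are first exon in GENCODE M21. The NRF1 match of Sdhd lies within the Timm8b exon. The windows of Cox7a1 and Cox8b, both muscle isoforms, and of Cox8a, the general isoform, held neither sequence.

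Over the 36 windows, GCGCANGCG was found in 9 (25.0%), against 5.33% of 27025 promoters of all genes in the table and 11.5% of the 8898 promoters of genes tested here. The genes were Sdha, Sdhd, Cycs, Cox6a1, Atp5g2, Atp5h, Atp5k, Atp5l and Atpif1. CCGGAAG was found in 8 windows (22.2%), against 7.05% of all promoters and 13.9% of those of tested genes, in Sdhd, Uqcrh, Uqcr11, Cox6a1, Cox6b1, Atp5e, Atp5h and Atp5l. Sdhd, Cox6a1, Atp5h and Atp5l held both. AAGGTCA, a sequence known to be bound by estrogen-related receptors, was in 3 windows (8.33%, against 4.05% of all and 2.79% of tested), those of Atp5g3, Atp5l and Atpif1. CANNTG, the E-box to which myogenic factors bind, was in 23 windows (63.9%, against 66.0% and 57.1%), among them Cox7a1, Cox8a and Cox8b. TATAAA was in 1 window, that of Atp5l (2.78%, against 13.0% and 6.6%). None of these motifs contains another, and a match is a description of letters, not a site. The windows follow RefSeq starts, and not all lie at a GENCODE M21 gene start. That of Atpif1 (chr4:132535415-132535664, minus) lay wholly upstream of the GENCODE gene (132530555 to 132533659). Those of Atp5g2, Atp5d, Cox7a2l, Atp5f1 and Atp5j2 lay wholly inside the GENCODE spans of their genes. The median log2 fold change between the groups was 0.15 for the 9 genes with an NRF1 match and 0.16 for the other 27, and it was 0.16 for the 8 with an ETS match and 0.15 for the other 28.

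Transcripts of most of these genes were slightly higher in inotodiol-treated muscle in mean, and no single gene's difference passed the test. In edgeR's quasi-likelihood test with Benjamini-Hochberg adjustment, 0 of the 45 were called at an adjusted p under 0.05, against 0 of 11700 genes (0.0%), and their adjusted p ranged from 0.96 to 1.0. DESeq2 and limma-voom also called 0 of them, against 0.00855% and 0.0% of all genes, with smallest adjusted p of 0.99 and 0.91. At an unadjusted p under 0.05, 5 were higher with inotodiol (Cycs, Cox5b, Cox6a2, Atp5g1 and Atp5k), where 2.67% of all genes tested were, and 0 were lower, against 2.21% (4.87% in either direction). The log2 fold change lay above 0 for 35 of the 45 (77.8%), against 49.9% of all genes. Its median was 0.15, a fold of 1.11, with a range from -0.49 to 0.33, and the median of all genes was -0.00073. The standard errors had a median of 0.13, against 0.28 for all genes, and these sets were not matched for level. The plot of log2 fold changes gives each gene with its interval.

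**Figure D1:**
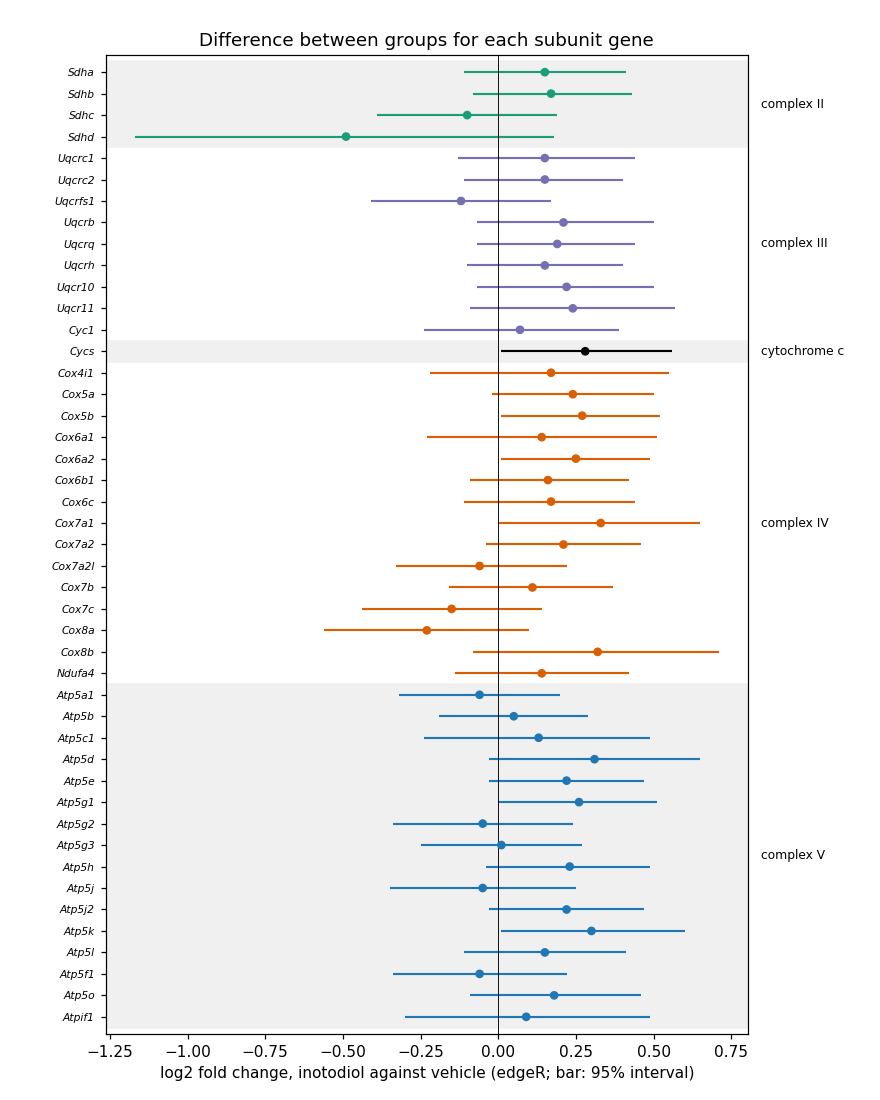
Log2 fold change of each subunit gene, inotodiol against vehicle, with its 95% interval from edgeR (x axis, log2 scale), genes on the y axis by complex. Most points lie between 0 and 0.33 and 5 intervals lie wholly above 0, while Sdhd has the lowest value, -0.49, and the widest interval.

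Single libraries carried this pattern unequally. Levels are given as CPM, counts scaled to a common library size with TMM factors. The summed level of the 45 genes was 18572, 17867 and 17694 CPM in the vehicle group (libraries 1 to 3, in that order here and later) and 19041, 18915 and 21472 CPM in the inotodiol group, a ratio of means of 1.10. The groups did not overlap, though inotodiol 1 and 2 were closer to vehicle 1 than to inotodiol 3. Without TMM scaling, on plain library totals, the sums were 19676, 17908 and 18769 CPM with vehicle and 17629.7, 17568 and 21964 CPM with inotodiol, a ratio of 1.01, and the groups overlapped. Inotodiol 3 stayed highest on both scales, and inotodiol 1 and 2, the libraries with the largest share of the ribosomal precursor Rn45s (10.2% and 9.56%, against 3.97% to 6.82% in the other 4), became the lowest. Whether that share plays a part was not tested.

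Inotodiol 3 held the highest of the 6 levels for 24 of the 45 genes, where 19.7% of all genes had their highest level in that library, and the lowest for 0, against 18.0%. Inotodiol 1 was highest for 8 genes, against 16.2% of all genes, and lowest for 10, against 17.0%. Inotodiol 2 was highest for 4 (15.0%) and lowest for 2 (15.6%). The vehicle libraries were highest for 6, 2 and 1 genes (17.6%, 15.7% and 15.8% of all genes) and lowest for 9, 12 and 12 (17.7%, 16.4% and 15.3%). For 14 genes all 3 inotodiol values lay above all 3 vehicle values, where 5.15% of all genes did so, and for 1, Cox8a, all lay below, against 5.26%. On library totals these counts were 2, against 2.15%, and 1, against 10.4%, so the 14 depend on the scaling. Where the groups are said below not to overlap for a gene, this holds with TMM scaling and for most of the 14 not on library totals. With 1 vehicle library left out, the count of higher genes without overlap was 21, 15 and 17 (libraries 1 to 3 in turn), beside 9.95%, 10.5% and 9.89% of all genes. With 1 inotodiol library left out it was 15, 23 and 15, beside 9.38%, 11.1% and 10.7%. Without inotodiol 3 the median log2 fold change of the 45 was 0.12, the low end of a range to 0.22 over all 6 such runs. On library totals it was 0.045, beside -0.12 for all genes. The median of the 45 thus stood above that of all genes by 0.15 with TMM scaling and by 0.16 on library totals. A change of scaling shifts all genes of a library nearly alike, so this gap could hardly differ between the scales and is no check of the pattern.

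**Figure D2:**
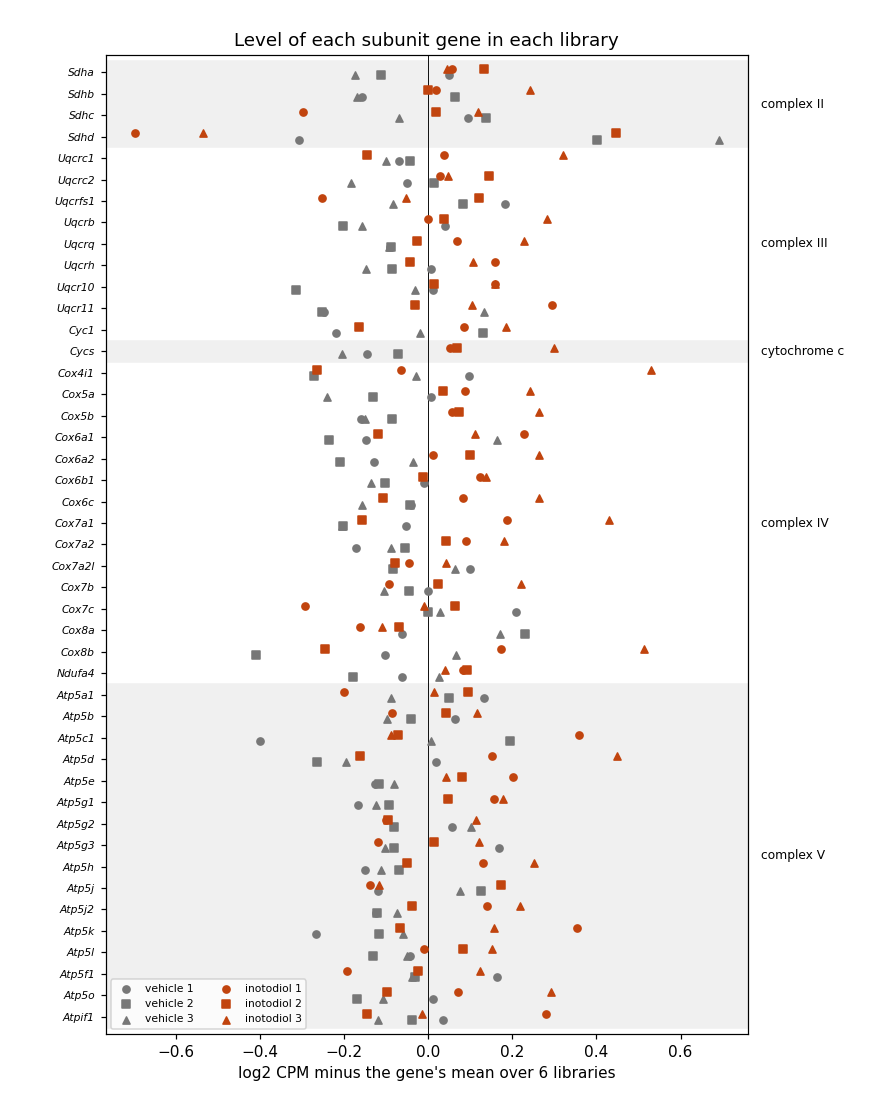
Level of each subunit gene in each of the 6 libraries (x axis, log2 CPM minus the gene's mean over the 6 libraries), grey for vehicle and orange for inotodiol, with a shape for each replicate. Inotodiol 3 (orange triangles) is the rightmost point for 24 of 45 genes, and Sdhd and Cox8b are spread most widely.

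Complex II oxidises succinate in the citric acid cycle, and its 4 genes did not move together. Sdha, the flavoprotein that binds succinate (chromosome 13, 74322254 to 74350280), had 317, 284 and 271 CPM in the vehicle libraries and 319, 335 and 316 CPM in the inotodiol libraries, a log2 fold change of 0.15 ± 0.12 (SE, unadjusted p = 0.23). Sdhb, the iron-sulfur subunit (chromosome 4, 140961203 to 140979193), had 948, 1106 and 941 CPM and 1072, 1058 and 1251 CPM, a difference of 0.17 ± 0.12 (unadjusted p = 0.17). For both catalytic subunits the inotodiol mean was higher and 1 vehicle library reached into the inotodiol range, vehicle 1 for Sdha and vehicle 2 for Sdhb. Sdhc, a membrane anchor, had 384, 395 and 342 CPM with vehicle and 292, 365 and 390.1 CPM with inotodiol, a difference of -0.10 ± 0.14 (unadjusted p = 0.48) that turned to 0.01 without inotodiol 1, the low library. Sdhd, the other anchor (chromosome 9, 50596357 to 50603812), had 17.7, 29.0 and 35.6 CPM and 13.5, 30.0 and 15.1 CPM, from 168, 269 and 362 counts against 124, 270 and 147. Its difference was -0.49 ± 0.31 (95% interval -1.17 to 0.18, unadjusted p = 0.14), the most negative of the 45, and leaving out 1 library at a time gave -0.94 to -0.26. Its groups overlapped widely, since vehicle 1 lay with the low inotodiol libraries and inotodiol 2 with the high vehicle ones. Per kilobase of exon, Sdhb stood at 931 and Sdhd at 19.1 CPM per kb over all libraries, the lowest level of the 45. The median log2 fold change of the complex was 0.027, beside -0.00073 for all genes. On library totals it was -0.087, beside -0.12 for all genes, so its sign depends on the scaling. The gap to the median of all genes was 0.028 with TMM scaling and 0.032 on library totals, and a change of scaling can hardly move it.

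Complex III hands electrons from ubiquinol to cytochrome c, and 8 of its 9 genes lay above 0 (median log2 fold change 0.15). On library totals the median was 0.045, beside -0.12 for all genes. Of its catalytic subunits, cytochrome c1 (Cyc1) had a difference of 0.07 ± 0.15 and the Rieske iron-sulfur protein (Uqcrfs1) of -0.12 ± 0.13, the 1 value below 0. The core proteins Uqcrc1 and Uqcrc2 both had 0.15, with SEs of 0.13 and 0.12, and the groups did not overlap for Uqcrc2. The small subunits had the smallest p. Uqcrq had 546, 547 and 545 CPM with vehicle and 609.8, 571 and 681 CPM with inotodiol, a difference of 0.19 ± 0.12 (unadjusted p = 0.14). Its vehicle values were the tightest of the genes described, 546 ± 1.21 CPM with vehicle and 621 ± 56.2 CPM with inotodiol (SD, n = 3), and all 3 inotodiol values lay above them. Uqcr10 had 214, 171 and 208 CPM and 237, 214 and 237 CPM, a difference of 0.22 ± 0.13 (unadjusted p = 0.13), and its groups only just parted, with vehicle 1 and inotodiol 2 both rounding to 214 CPM. Uqcrb had 256, 216 and 224 CPM and 249, 256 and 303 CPM, a difference of 0.21 ± 0.13 (unadjusted p = 0.13). Vehicle 1 was as high as inotodiol 1 and 2 for Uqcrb, so its groups overlapped. Uqcrh, the hinge protein beside cytochrome c1 (chromosome 4, 116066965 to 116075071), had 486, 456 and 437 CPM and 540.5, 469 and 521 CPM, a difference of 0.15 ± 0.12 (unadjusted p = 0.22), with vehicle 1 above inotodiol 2. Uqcr11 completed the complex at 0.24 ± 0.15, also with overlapping groups.

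Cycs encodes cytochrome c, the carrier between complexes III and IV (chromosome 6, 50562563 to 50566538). It had 194, 205 and 186 CPM with vehicle and 223, 225 and 265 CPM with inotodiol, a difference of 0.28 ± 0.13 (95% interval 0.01 to 0.56, unadjusted p = 0.044). Every inotodiol library lay above every vehicle library, and leaving single libraries out kept the difference between 0.20 and 0.33. Its testis counterpart Cyct had 0 counts in every library.

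Complex IV had a median log2 fold change of 0.17, with 12 of 15 genes above 0, against 49.9% of all genes. For 5 genes all inotodiol values lay above all vehicle values, against 5.15% of all genes, and for 1, Cox8a, all lay below, against 5.26%. The summed level of complex IV was 5877, 5481 and 5764 CPM with vehicle and 6184, 6060.1 and 7312 CPM with inotodiol. On library totals the groups overlapped in this sum, and the median log2 fold change was 0.057, beside -0.12 for all genes. Cox5b, which binds zinc on the matrix side (chromosome 1, 36691449 to 36693681), had 355, 373 and 357 CPM and 412, 417 and 476 CPM, a difference of 0.27 ± 0.12 (95% interval 0.01 to 0.52, unadjusted p = 0.042). The inotodiol values stood clear of the vehicle values, which lay close together. Cox5a, beside it on the matrix side, followed at 0.24 ± 0.12 and Cox7a2 at 0.21 ± 0.12, both without overlap. Cox4i1, an early partner in assembly of the enzyme, had another pattern. It stood at 689, 534 and 632 CPM with vehicle and 616, 537 and 930.4 CPM with inotodiol, and its difference of 0.17 ± 0.18 (unadjusted p = 0.37) rested on inotodiol 3, the 1 library above all vehicle libraries. Without that library the difference was -0.10. Cox6b1, which bridges dimers of the enzyme, and Cox6c had 0.16 ± 0.12 and 0.17 ± 0.13, Cox7b had 0.11 ± 0.12 and Ndufa4, once assigned to complex I, had 0.14 ± 0.13 with no overlap between the groups. Cox7c and Cox7a2l, the latter a factor that joins complexes III and IV, had -0.15 ± 0.13 and -0.06 ± 0.13.

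The muscle isoforms of complex IV, Cox6a2, Cox7a1 and Cox8b, had log2 fold changes from 0.25 to 0.33, with a median of 0.32, and their general counterparts from -0.23 to 0.21, with a median of 0.14, and the difference between the sets was not tested. The muscle median was 0.18 without inotodiol 3 and 0.47 without inotodiol 2. Cox6a2, the muscle form of subunit 6a (chromosome 7, 128205435 to 128206387), had 1612, 1523 and 1719 CPM with vehicle and 1775, 1888 and 2114 CPM with inotodiol, a difference of 0.25 ± 0.11 (95% interval 0.01 to 0.49, unadjusted p = 0.045). All 3 inotodiol values lay above the vehicle values. Cox6a1, the general form (chromosome 5, 115345642 to 115348981), had 42.4, 39.9 and 52.7 CPM and 55.1, 43.3 and 50.8 CPM, a difference of 0.14 ± 0.17 (unadjusted p = 0.42) with overlapping groups. Cox7a1, the muscle form of subunit 7a (chromosome 7, 30184144 to 30186078), had 211, 189.8 and 189 CPM with vehicle and 249, 196 and 294 CPM with inotodiol, the most positive log2 fold change of the 45 with all libraries, 0.33 ± 0.15 (unadjusted p = 0.051). Inotodiol 2 lay among the vehicle libraries, and the value was 0.18 without inotodiol 3. Cox7a2, the general form (chromosome 9, 79755361 to 79759878), had 393, 425 and 416 CPM and 471, 455 and 501 CPM, a difference of 0.21 ± 0.12 (unadjusted p = 0.09) without overlap. Cox8b, the muscle form of subunit 8 (chromosome 7, 140898945 to 140900446), had 194, 157 and 218 CPM with vehicle and 235, 176 and 298 CPM with inotodiol, a difference of 0.32 ± 0.18 (unadjusted p = 0.11). Inotodiol 3 was again highest and inotodiol 2 lay below 2 vehicle libraries, and the value was 0.11 without inotodiol 3, 0.20 without vehicle 2 and 0.49 without inotodiol 2. Cox8a, the general form (chromosome 19, 7215153 to 7217616), had 53.9, 66.1 and 63.3 CPM and 50.3, 53.7 and 52.2 CPM, a difference of -0.23 ± 0.15 (95% interval -0.56 to 0.10, unadjusted p = 0.15), the 1 gene of the 45 whose inotodiol values all lay below the vehicle values, though inotodiol 2 and vehicle 1 nearly met.

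Shares of isoforms compare genes within a library and do not move with its scaling. Counts were divided by exon length, and shares from undivided counts are given beside them, since a Quant-Seq library may be read mainly from transcript ends and whether these counts scale with length is not settled by the sources used here. Cox6a2 made up 97.0%, 97.0% and 96.5% of the 6a pair with vehicle and 96.4%, 97.3% and 97.2% with inotodiol, a difference in means of 0.2 points (exact two-sided permutation p = 0.6, 0.7 after Benjamini-Hochberg adjustment over 4 shares), or 97.3% and 97.5% in mean on undivided counts. Cox7a1 made up 39.8%, 35.5% and 35.9% of the 7a pair with vehicle and 39.4%, 34.6% and 41.9% with inotodiol, a difference of 1.6 points (exact permutation p = 0.7, adjusted 0.7) that was -0.03 without inotodiol 3. Undivided counts gave 32.3% and 33.9% for Cox7a1. Cox8b made up 84.6%, 78.4% and 84.0% of the subunit 8 pair with vehicle and 87.7%, 83.3% and 89.7% with inotodiol, a difference of 4.6 points (exact permutation p = 0.3, adjusted 0.6). Vehicle 1 and 3 lay above inotodiol 2, so the groups overlapped for subunit 8, and undivided counts gave 75.4% and 81.4%, a difference of 6.0 points with the same p. With 3 mice against 3 the smallest p this test allows is 0.1. The muscle form thus made up nearly all of the 6a transcripts, most of those of subunit 8 and the smaller part of the 7a pair in each library.

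**Figure D3:**
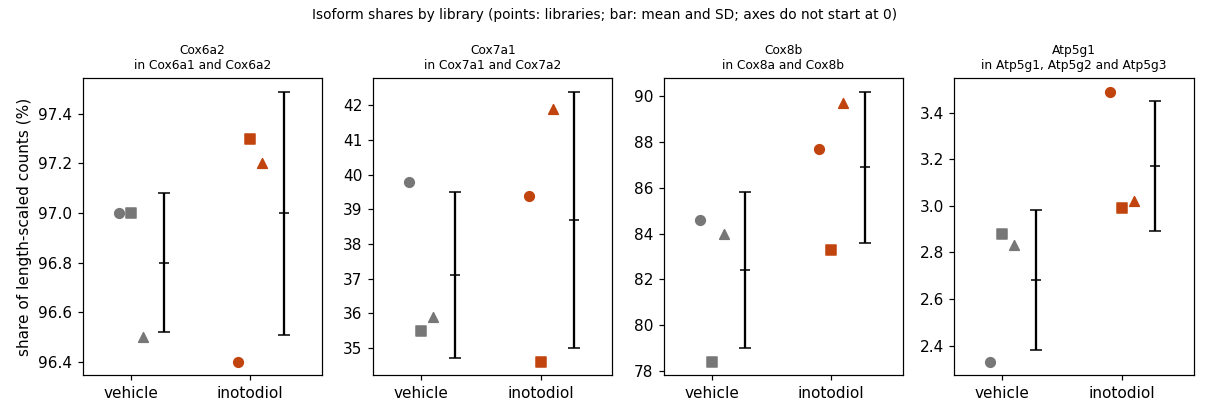
Share of the first-named gene within its isoform group (y axes, percent of length-scaled counts, which do not start at 0) in each library, grey for vehicle and orange for inotodiol, with circle, square and triangle for replicates 1 to 3. Bars show the mean and SD of 3 libraries, and the groups overlap in each panel except that of Atp5g1, where they are parted by 2.88% and 2.99%.

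Complex V is built of a catalytic head (F1) and a membrane part (Fo), and 12 of its 16 genes lay above 0 with a median of 0.14. On library totals the median was 0.022, beside -0.12 for all genes. The head genes Atp5a1 and Atp5b, for the alpha and beta subunits that form the catalytic ring, were near 0. Atp5a1 had 1319, 1246 and 1132 CPM with vehicle and 1048, 1285 and 1215 CPM with inotodiol, a difference of -0.06 ± 0.12 (95% interval -0.32 to 0.20, unadjusted p = 0.63), and 0.02 without inotodiol 1. Atp5b had a difference of 0.05 ± 0.11 and Atp5c1, for the gamma subunit of the rotor shaft, of 0.13 ± 0.17. The other shaft genes stood higher. Atp5d, for the delta subunit (chromosome 10, 80138632 to 80145818), had 256, 211 and 221 CPM and 281, 226 and 345 CPM, a difference of 0.31 ± 0.16 (unadjusted p = 0.071), with inotodiol 2 among the vehicle libraries and a value of 0.14 without inotodiol 3. Atp5e, for the epsilon subunit, had 0.22 ± 0.12 and no overlap.

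In the membrane part, Atp5k, for subunit e, which helps ATP synthase pair into dimers (chromosome 5, 108433244 to 108434448), had 205, 228 and 237 CPM with vehicle and 316, 236 and 275 CPM with inotodiol, a difference of 0.30 ± 0.14 (95% interval 0.01 to 0.60, unadjusted p = 0.045). Vehicle 3 lay just above inotodiol 2, so the groups overlapped. Its dimer partner Atp5l, subunit g, had 0.15 ± 0.12, Atp5j2, subunit f, had 0.22 ± 0.12 and Atp5h, subunit d, had 0.23 ± 0.12, each without overlap. Atp5o, which ties head to stalk, had 0.18 ± 0.13, while the other stalk genes Atp5f1, subunit b, and Atp5j, coupling factor 6, had -0.06 ± 0.13 and -0.05 ± 0.14. Atpif1, whose product blocks ATP hydrolysis by the enzyme, had 30.5, 29.0 and 27.4 CPM and 36.2, 27.0 and 29.5 CPM, a difference of 0.09 ± 0.18, and its groups overlapped.

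Subunit c, the ring that turns as protons pass, is encoded by Atp5g1, Atp5g2 and Atp5g3, which give the same mature protein. Atp5g1 (chromosome 11, 96068852 to 96075670) had 278, 292 and 286 CPM with vehicle and 348, 322 and 353 CPM with inotodiol, a difference of 0.26 ± 0.12 (95% interval 0.00 to 0.51, unadjusted p = 0.047) that stayed between 0.23 and 0.29 whichever library was left out. Each inotodiol value lay above each vehicle value. Atp5g2 had 130.2, 118 and 134 CPM and 117, 117 and 135 CPM, a difference of -0.05 ± 0.14 (unadjusted p = 0.71). Atp5g3 (chromosome 2, 73908447 to 73911326) had 1587, 1335 and 1316 CPM and 1300.2, 1427 and 1535 CPM, a difference of 0.01 ± 0.12 (unadjusted p = 0.95), which was -0.11 on library totals. Both overlapped between the groups. Per kilobase of exon, Atp5g3 stood at 1957, Atp5g2 at 171 and Atp5g1 at 63.8 CPM per kb over all libraries. The share of Atp5g1 among the 3 was 2.33%, 2.88% and 2.83% with vehicle and 3.49%, 2.99% and 3.02% with inotodiol on length-scaled counts (exact permutation p = 0.1, the smallest possible, adjusted 0.4). On undivided counts it was 13.9%, 16.8% and 16.5% against 19.7%, 17.3% and 17.4%, a difference of 2.4 points with the same p. The long annotated exons of Atp5g1, 4912 bases, make the first share small.

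The spread of levels across the 45 genes was wide. On the per-kilobase scale the highest were Cox6a2 at 2606, Atp5g3 at 1957 and Sdhb at 931 CPM per kb, and the lowest were Sdhd at 19.1, Atpif1 at 47.3, Atp5g1 at 63.8 and Cycs at 69.3 CPM per kb. Whether these counts scale with length is not settled, and the order differs on undivided CPM. There the highest were Cox6a2 at 1772, Atp5g3 at 1417 and Atp5a1 at 1207 CPM. The lowest were Sdhd at 23.5, Atpif1 at 30.0, Cox6a1 at 47.4 and Cox8a at 56.6 CPM, while Atp5g1 stood at 313 and Cycs at 216 CPM. Between mice of 1 group the coefficient of variation of a subunit gene had a median of 7.09% with vehicle and 10.3% with inotodiol, against 19.7% and 20.7% for all genes. These sets were not matched for level. The 45 had at least 124 counts in each library, while the filter kept genes at a minimum count of 10. The exons of 10 genes overlap a gene annotated on the other strand (Uqcrc2, Uqcrb, Cox5a, Cox6a2, Atp5a1, Atp5j, Atp5l, Atp5f1, Atp5o and Atpif1), and reads of the pair cannot be told apart where the strand setting is not known. For Cox6a2 the neighbour is the integrin gene Itgad.

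Exon length moved with the levels in single libraries, a relation looked at after the values were known. Across the 45 genes, the Spearman correlation between exon length and a gene's level relative to its mean was 0.14, 0.56 and -0.20 in the vehicle group and -0.44, 0.24 and -0.09 in the inotodiol group. Short genes were thus relatively high in inotodiol 1 and low in vehicle 2. Over 11251 genes with a length the same values were 0.05, 0.15, -0.08, -0.00, 0.10 and -0.18. The 23 genes of up to 920 exon bases had a median log2 fold change of 0.21, with 21 above 0, and the 22 longer ones 0.12, with 14 above 0. Without vehicle 2 both medians were 0.16, and without inotodiol 3 they were 0.14 and 0.017. Transcript GC content was related to levels in the same unequal way. Its Spearman correlations were -0.26, -0.20 and 0.30 in the vehicle group and 0.33, -0.57 and 0.13 in the inotodiol group. Over 11269 genes with a GC value they were -0.08, -0.10, 0.09, 0.05, -0.22 and 0.23. These correlations are across genes that share libraries and depth, and the part of length or base composition in the differences was not tested.

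**Figure D4:**
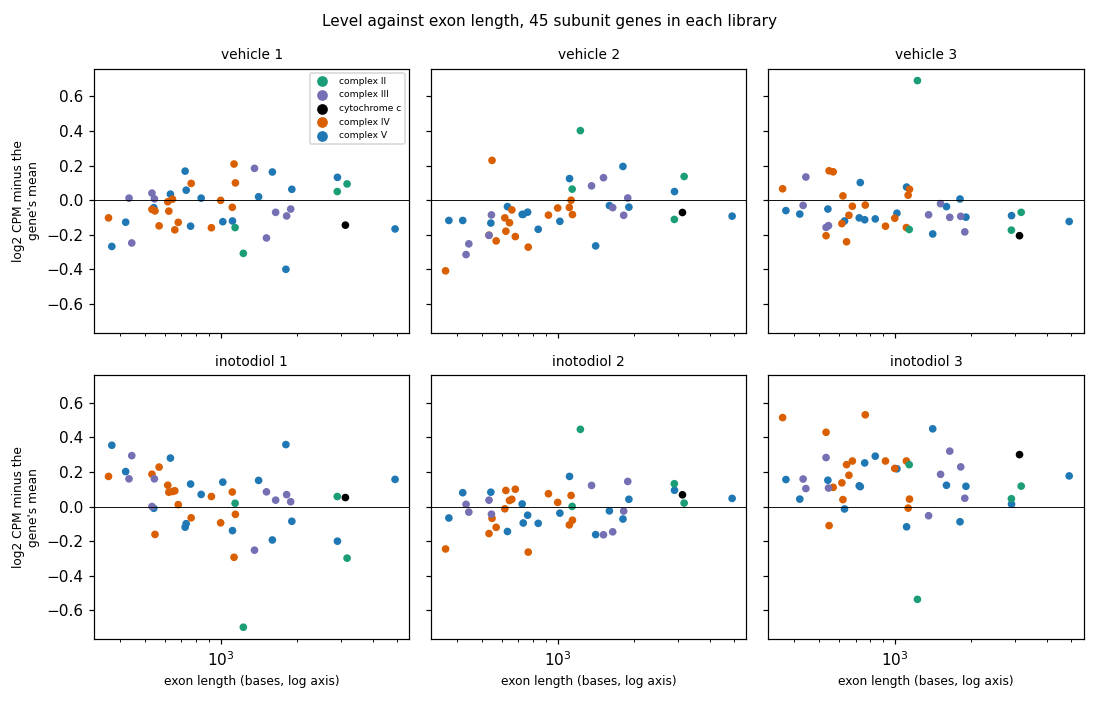
Level of each subunit gene (y axis, log2 CPM minus the gene's mean over 6 libraries) against its exon length (x axis, bases, log scale) in each library, coloured by complex. Points slope upwards in vehicle 2 and downwards in inotodiol 1, with Spearman correlations of 0.56 and -0.44.

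Complex I, which feeds the same chain from NADH, showed values like those of the 45. Of its 36 nuclear genes 30 lay above 0 (83.3%, against 49.9% of all genes), the median was 0.15 and 0 were called. For 12 the groups did not overlap on the higher side, against 5.15% of all genes, and for 1 on the lower side, against 5.26%. The median level of complex I by library was -0.08, -0.044 and -0.062 with vehicle and 0.06, 0.006 and 0.13 with inotodiol, against -0.051, -0.083 and -0.087 and 0.058, 0.0007 and 0.15 for the 45. Inotodiol 3 was highest in both sets and inotodiol 2 was the lowest treated library.

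Assembly factors of these complexes, and subunit or isoform genes outside the 45, lay on both sides of 0. Of 45 such genes 40 were tested, 19 above and 21 below 0, with a median of -0.0054, and 0 were called. Those not tested were Cox4i2 and Cox6b2, with at most 24 and 8 counts a library, and Cox7b2, Cox8c and Cyct, with 0 in all. The smallest p belonged to Cox20, which chaperones the mitochondrially encoded subunit 2 of complex IV, at 64.1, 60.1 and 74.9 CPM and 83.7, 84.2 and 100.4 CPM (log2 fold change 0.43 ± 0.15, edgeR unadjusted p = 0.015, adjusted 0.95), with no overlap. The gene 2010107E04Rik, for a small protein of ATP synthase, had 221, 211 and 211 CPM and 263, 254 and 293 CPM (0.33 ± 0.12, unadjusted p = 0.017, adjusted 0.96), also with no overlap. Uqcc1, an assembly factor of complex III, had 0.28 ± 0.16. The smallest p on the lower side were those of the copper chaperone Cox17 at -0.32 ± 0.20, the membrane insertase Cox18 at -0.39 ± 0.25 and the assembly factor Coa6 at -0.42 ± 0.29.

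**Figure D5:**
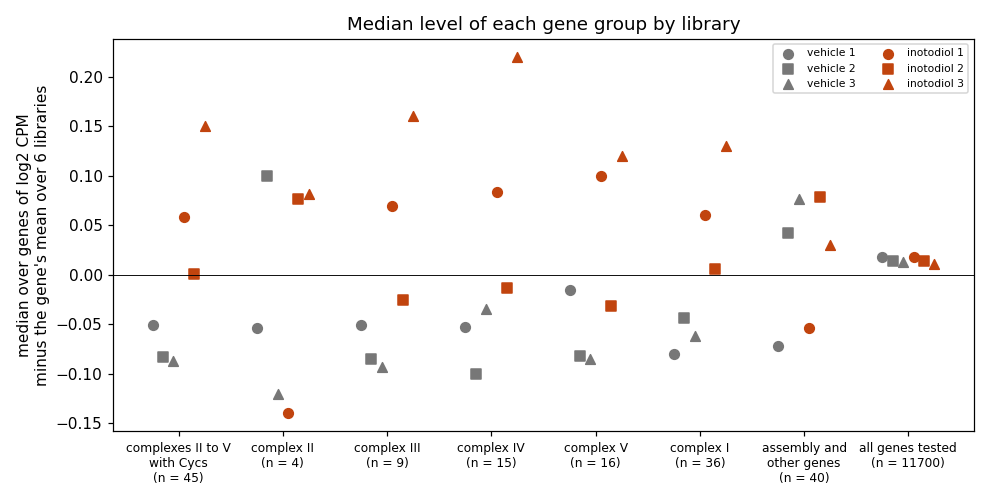
Median level of each gene group in each library (y axis, median over genes of log2 CPM minus the gene's mean over 6 libraries), grey for vehicle and orange for inotodiol, with circle, square and triangle for replicates 1 to 3. For the 45 genes of complexes II to V the inotodiol libraries lie at 0.0007 to 0.15 and the vehicle libraries at -0.087 to -0.051, while all genes tested lie at 0.011 to 0.018.

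Markers of cell types were read beside these values, and in bulk muscle fewer cells of a type and less RNA per cell cannot be told apart. The fast fibre list, 8 genes with 6 above 0, summed to 157978 to 164461 CPM with vehicle and 164169 to 172758 CPM with inotodiol, and the slow fibre list to 2225 to 3140.5 and 2544 to 3061 CPM. Their defining genes were thus present at high levels, fast fibres far above slow ones. Heart markers summed to at most 102 CPM with Nppb and Myl7 at 0 in every library, and brown fat markers to at most 22.8 CPM with Ucp1 at 0. Hepatocyte markers, 8 of 8 above 0, summed to 36.8 to 81.1 CPM with vehicle and to 594, 254 and 95.6 CPM in inotodiol 1 to 3. Exocrine pancreas markers, 5 genes of which 0 passed the filter, summed to 24.3 CPM in inotodiol 1. In every other library they summed to 0 to 0.324 CPM. Schwann markers, 4 of 4 above 0, summed to 48.5 to 60.4 CPM with vehicle and 70.7, 72.6 and 155 CPM with inotodiol. Erythroid markers, 5 of 5 above 0, were highest in inotodiol 2 at 15052 CPM and lowest in inotodiol 3 at 4276 CPM. Fibroblast markers, 0 of 5 above 0, summed to 929.7, 947 and 1488 CPM with vehicle and 907, 847 and 1061 CPM with inotodiol. Macrophage markers, 2 of 7 above 0, were highest in vehicle 3 at 229 CPM, white fat markers, 2 of 6 above 0, in vehicle 1 at 302 CPM, and endothelial markers, 3 of 4 above 0, in vehicle 1 at 93.1 CPM. Of these lists the Schwann one shares with the 45 genes its highest level in inotodiol 3, and the part of any of these lists in the differences was not tested.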

How the data were processed

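RNA of 6 gastrocnemius muscles was analysed from the deposited whole-number read counts per gene symbol, which the authors did not normalise as far as the values show. The tools named are Bowtie2 and bedtools, with build mm10, per the submitters' processing notes, and per the labels' protocols a Lexogen Quant-Seq kit was used on total RNA. Their versions, the annotation, the strand setting and the handling of reads with several matches were not given in the sources used here, so genes with pseudogenes or near-identical copies are uncertain. Library totals ran from 8961893 to 9953764 counts. Of 23282 rows (44 repeat a symbol), filterByExpr (minimum count 10, minimum total 15) kept 11700. Counts were TMM-scaled and tested two-sided with edgeR 4.0.16 (R 4.3.3, quasi-likelihood, group as the only term, Benjamini-Hochberg over all genes tested, threshold 0.05), with a common biological coefficient of variation of 27.2%. The test was tried on simulated data. Levels relative to a gene's mean are log2 CPM with a prior count of 2. Spans and exon-union lengths are from GENCODE M21 (GRCm38). Motif letters were set after values were seen. All members and lists were chosen with earlier results of these data known. Values in every library are given for the 2 most abundant members and the 3 with the smallest p in each complex, Cycs and the isoform genes; Atpif1 was added after its values were seen. Alternatives were limma-voom (3.58.1), DESeq2 (1.42.0), RLE and library-total scaling, no filter, at least 1 CPM in every one of the 6 samples, a replicate block, a threshold of 0.1 and each library left out; runs without Rn45s were chosen after seeing the data.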

Additional observations from a re-analysis of the deposited data

How the results depend on the processing

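None of the 45 genes was called under any alternative run, and 32 to 37 lay above 0 with single libraries left out, 30 on library totals. Over all genes, edgeR called 95 with no filter, DESeq2 called 1, and leaving out single libraries gave 0 to 25, the 25 without inotodiol replicate 3. On library totals the median log2 fold change was 0.045 for the 45 genes, 0.045 for complex III, 0.057 for complex IV and 0.022 for complex V. With Rn45s also removed it was 0.085, 0.085 and 0.067 for the 45, complex III and complex V. The median of all genes was -0.12 on library totals and -0.074 with Rn45s also removed. The 45 genes stood above it by 0.15 with TMM scaling and by 0.16 on each of these other scales. Scaling shifts all genes of a library nearly alike, so this gap could hardly differ and is no check of the pattern. The complex II median was -0.087 and -0.044 on these scales. Leaving out single libraries gave 0.12 to 0.22 for the 45, 0.12 to 0.24 for complex III and -0.047 to 0.09 for complex II. Higher genes without overlap numbered 14 in the main run, against 5.15% of all genes, and 2 on library totals, against 2.15%. With single libraries left out they numbered 15 to 23, against 9.38% to 11.1% of all genes. The direction turned in some run that left out a library for 9 of the 45 genes, Sdhc (-0.19 to 0.01), Cyc1 (-0.01 to 0.17), Cox4i1 (-0.10 to 0.32), Atp5a1 (-0.12 to 0.02), Atp5c1 (-0.03 to 0.27), Atp5g3 (-0.05 to 0.10), Atp5j (-0.16 to 0.01), Atp5f1 (-0.14 to 0.02) and Atpif1 (-0.04 to 0.18). On library totals it turned for 5, Cyc1, Cox7b, Atp5b, Atpif1 and Atp5g3 (-0.11), and with Rn45s also removed for Atp5b and Atp5g3 (-0.06). The Cox7a1 share difference ran from -0.03 to 3.6 points, and the Atp5g1 share difference was 2.4 points with counts not divided by length. The cause was not tested. Replicate numbers did not pair the samples (Pearson r -0.081, 0.108 and 0.0225 for same-numbered deviations), and a replicate block gave a median of 0.15 for the 45 genes and 0 calls. With a median SE of 0.13, a difference of 0.15 on the log2 scale was little more than 1 SE of 1 gene. That SE does not measure the spread of the median over the 45 genes.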
